A study of Homo sapiens with 9 samples.

Results

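Genes of the mitochondrial respiratory chain were followed across 9 single-colour Affymetrix arrays of HEK293, an established cell line that was derived from human embryonic kidney. The genes were chosen by symbol alone: NDUF, UQCR or ATP5 at the start, COX followed by a digit, or SDH followed by A to D. This took 43 probe sets of 41 genes, out of 14884 genes with a named probe set, and where a gene had more than 1 probe set the one with the highest mean of the 9 arrays was kept. Of the 41 genes, 23 encode subunits (5 of complex III, 16 of complex IV and 2 of ATP synthase), 13 encode assembly factors (2 for complex I, 4 for complex II and 7 for complex IV), 1 encodes the ATP synthase inhibitor, and 4 are RNA genes or a pseudogene named for a respiratory chain gene. Subunit genes of complexes I and II had no named probe set, which here means 1 annotated with 1 symbol only, and were not analysed here.

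There were 3 groups of 3 arrays. The agonist group is labelled as overexpressing GPR39, a zinc-sensing G protein-coupled receptor, and as stimulated with 1 uM TC-G-1008, a synthetic GPR39 agonist. The GPR39 group is labelled as overexpressing the receptor with 0.03 mg/mL cumate, an inducer of engineered promoters, and the mock group as naive control cells without cumate. All cells were grown in medium with serum, and the labels give neither an exposure time, nor whether the agonist group also received cumate, nor what drives the receptor. The agonist and a possible lack of cumate therefore cannot be told apart in agonist against GPR39, nor can receptor and cumate in GPR39 against mock. The replicates are called biological, with no statement on separate cultures, so the p-values cover the array-to-array spread, which may be technical.

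The respiratory chain moves electrons from NADH and succinate through complexes I and II to ubiquinone, then through complex III and cytochrome c to complex IV, which reduces oxygen, and ATP synthase uses the proton gradient that results. Each complex is built from many subunits, some encoded in mitochondrial DNA, and needs assembly factors that insert haem, copper, flavin or iron-sulfur centres, or hold a new subunit in place, without staying in the finished enzyme. In complex IV the copper centres lie in the mitochondrially encoded subunits COX1 and COX2, and the factors COX17, COX11, COX18 and COX20 act on those.

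Array medians lay between 3.13 and 3.22 on the log2 scale. Mock replicate 1 stood apart from its group: its mean correlation over all probe sets was 0.988 with the GPR39 arrays and 0.985 with the other mock arrays, whose own correlation was 0.990. The counts, medians and called genes of comparisons with mock are therefore also given without it, except where stated. The 1 GPR39 probe set read 2.45 to 2.65 in agonist arrays, 2.55 to 2.62 in GPR39 arrays and 2.43 to 2.55 in mock arrays, below the 40th percentile of an array (2.63 to 2.70) on all 9, so these arrays did not show the receptor transcript in the groups labelled as overexpressing it. Whether the probes lie within the introduced sequence is not stated in the labels, and the groups are called by their labels throughout. All 6 HEK293 markers with a named probe set, of 10 listed, were above that percentile on all 9 arrays. Among them were the kidney transcription factor genes LHX1, PAX2 and PAX8. PAX8 lay close to that percentile, at 2.68 to 3.06 over the 9 arrays. Of markers of other cell types, both hepatocyte transport protein genes APOA1 (3.40 to 4.18 over the 9 arrays) and TTR (4.24 to 4.57) were above it on all 9 arrays, while ALB, the gene for albumin, was above it on none. The fibroblast markers DCN and LUM and the endothelial marker PECAM1 were above it on no array, and the endothelial marker VWF on all but mock replicate 3. The mean level of 3 leukocyte markers, of which CD14 and LAPTM5 were above it on all 9 arrays and TYROBP on all but mock replicate 1, was 3.12 to 3.27 in agonist arrays, 2.98 to 3.26 in GPR39 arrays and 2.87 to 2.93 in mock arrays; the part of other cells in the results was not tested.

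A probe set was tested where it was above the 40th percentile of its array on at least 3 of the 9 arrays. This held for 38 of the 41 genes. COX6B2, COX7B2 and COX8C, isoforms of complex IV subunits known from testis, did not pass: COX7B2 read 1.97 to 2.24 in agonist arrays, 1.79 to 2.09 in GPR39 arrays and 1.78 to 2.18 in mock arrays, and COX6B2 was above the percentile only on GPR39 replicate 3. The pseudogene UQCRBP1 passed with 1 of 3 agonist, 2 of 3 GPR39 and 3 of 3 mock arrays above it. Signals of different probe sets depend on their probes, so levels are compared between arrays and not between genes.

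**Figure D1:**
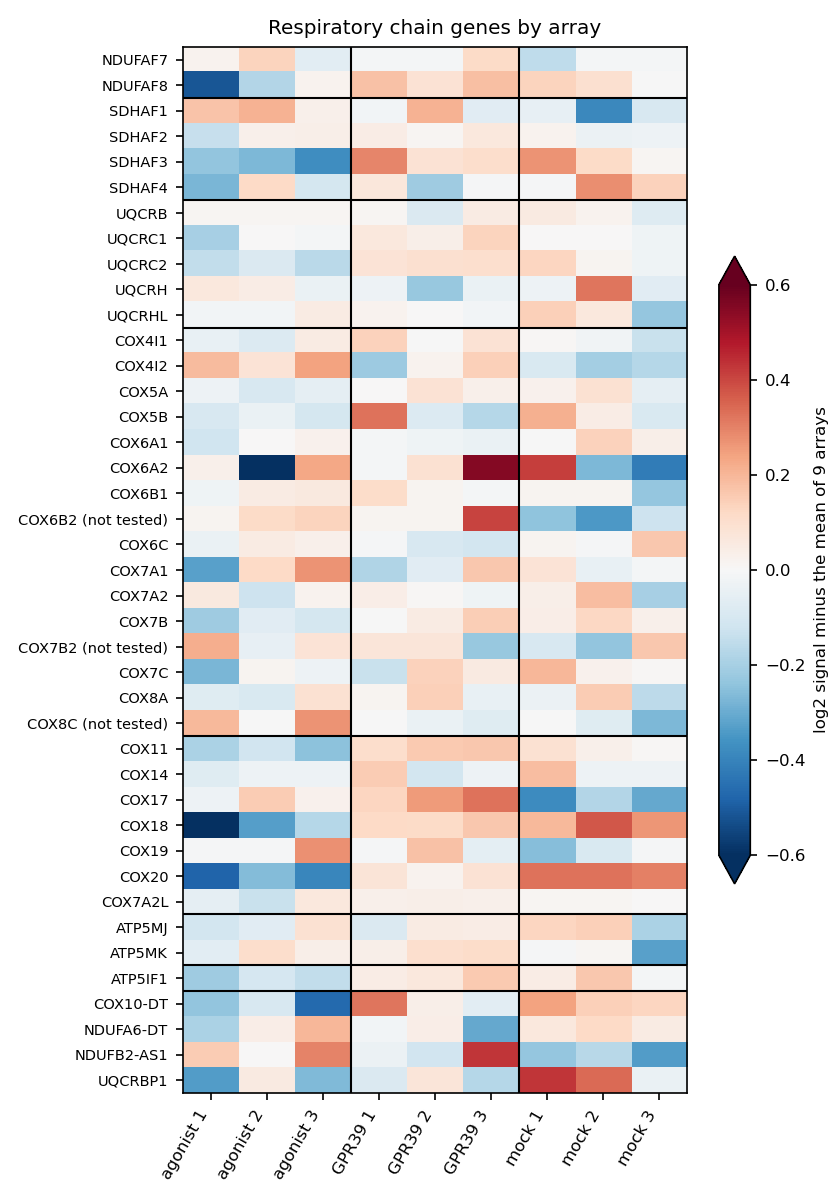
Log2 signal of each of the 41 genes (rows, by complex and role, separated by lines) on the 9 arrays (columns, agonist, GPR39 and mock), minus the gene's mean of the 9 arrays; the colour scale ends at 0.6 in either direction. COX20, COX18, COX11 and SDHAF3 are low on all 3 agonist arrays, COX17 is low on the 3 mock arrays, and most subunit rows are pale.

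The genes past the threshold in any comparison were 5 assembly factors, and the promoters of 4 of them are shown first, since COX20, COX18 and SDHAF3 fell together and COX17 did not. Each is the 250 bases before and 50 bases after the RefSeq gene start in GRCh38.p14, written 5′ to 3′ on the gene's strand. Capitals mark letters of 4 motifs that were searched on both strands: the palindromic motif of nuclear respiratory factor 1 (NRF1) in a strict form, a relaxed form with 1 free base that includes the strict one, CCGGAAG, bound by ETS factors such as GABPA, and ATGGCGGC, bound by YY1. COX11 has no entry in the table.
COX20, chr1:244835226-244835525, + strand: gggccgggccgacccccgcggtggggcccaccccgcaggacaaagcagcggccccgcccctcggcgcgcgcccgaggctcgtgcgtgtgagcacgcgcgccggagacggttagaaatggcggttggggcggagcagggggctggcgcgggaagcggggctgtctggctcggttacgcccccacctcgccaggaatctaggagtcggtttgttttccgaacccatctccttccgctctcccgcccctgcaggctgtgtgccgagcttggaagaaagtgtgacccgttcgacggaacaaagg
COX18, chr4:73069667-73069966, - strand: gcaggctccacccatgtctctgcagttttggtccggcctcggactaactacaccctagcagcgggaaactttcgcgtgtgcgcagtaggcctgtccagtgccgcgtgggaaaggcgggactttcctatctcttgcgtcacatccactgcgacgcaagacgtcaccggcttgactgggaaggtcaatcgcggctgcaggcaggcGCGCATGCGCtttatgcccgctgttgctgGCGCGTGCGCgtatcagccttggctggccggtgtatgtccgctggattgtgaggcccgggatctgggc
SDHAF3, chr7:97117448-97117747, + strand: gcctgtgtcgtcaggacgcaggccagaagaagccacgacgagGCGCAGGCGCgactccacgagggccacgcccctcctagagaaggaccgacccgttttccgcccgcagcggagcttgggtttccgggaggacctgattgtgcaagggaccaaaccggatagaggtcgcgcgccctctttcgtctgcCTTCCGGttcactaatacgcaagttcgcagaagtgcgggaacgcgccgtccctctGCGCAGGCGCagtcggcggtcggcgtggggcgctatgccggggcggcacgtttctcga
COX17, chr3:119677357-119677656, - strand: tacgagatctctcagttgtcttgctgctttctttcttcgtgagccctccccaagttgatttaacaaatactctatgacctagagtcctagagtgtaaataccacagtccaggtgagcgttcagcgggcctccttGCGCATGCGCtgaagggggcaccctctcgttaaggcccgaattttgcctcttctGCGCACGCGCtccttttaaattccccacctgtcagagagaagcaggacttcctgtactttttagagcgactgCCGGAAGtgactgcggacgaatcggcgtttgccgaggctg

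COX18 and COX17 held the strict NRF1 motif, which starts at base 204 of the COX18 and base 135 of the COX17 sequence. A further match to the relaxed form starts at base 233 of the COX18 and base 189 of the COX17 sequence. SDHAF3 held the relaxed NRF1 motif at bases 43 and 243 and the ETS letters at base 188, COX17 also the ETS letters at base 261, and COX20 none of the 4. Among the 31 protein-coding members with a promoter in the table, 2 held the strict NRF1 motif (6.45%), against 1.36% of all 27305 promoters and 1.75% of the 15842 of protein-coding genes. The relaxed form was in 7 (22.6%, against 6.28% and 8.57%), the ETS letters in 10 (32.3%, against 10.7% and 14.2%) and the YY1 letters in 2 (6.45%, against 3.21% and 4.49%). By role, the ETS letters were in 7 of 18 subunit and 3 of 12 assembly factor promoters, and the relaxed NRF1 motif in 3 of 18 and 4 of 12. The median share of G and C was 60.7% in the members' promoters, against 58.3% over all promoters and 62.7% over those of protein-coding genes. A match describes letters only. COX18 and SDHAF3, which fell in agonist against GPR39, held some of them, while COX20, which also fell, held none. COX17, which rose in GPR39 against mock, held some too.

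Agonist against GPR39 asks which of these genes differ with TC-G-1008 among cells that carry the receptor label. In this comparison 4 of 38 tested genes fell and 0 rose, all of the 4 assembly factors: COX18, COX20 and COX11 of complex IV and SDHAF3 of complex II. The 4 make up 10.5% of the tested genes, against 9.06% of all 33376 probe sets tested and 12.9% of the 12827 named ones. Falls alone were 5.95% of all probe sets tested and 9.28% of the named ones, and rises 3.12% and 3.59%. Without GPR39 replicate 1, 2 or 3 the count of members called was 1, and without agonist replicate 1 or 2 it was 2. Differences were below 0 in 27 of the 38 genes (71.1%), against 47.4% of all probe sets tested and 55.9% of the named ones. Over the whole group the share is thus near the background, and the differences lie among its members: 4 of 13 assembly factors (30.8%) passed and 0 of 20 subunits. The median log2 difference was -0.07 for assembly factors and -0.04 for subunits, and it was 0.01 over all probe sets tested and -0.03 over the named ones. These medians moved with single arrays. For assembly factors the median was -0.12 without GPR39 replicate 2, -0.14 without agonist replicate 2 and -0.13 without agonist replicate 3. For subunits it was -0.02 without GPR39 replicate 2 or agonist replicate 1, -0.03 without agonist replicate 2 and -0.08 without agonist replicate 3. With arrays centred on their medians they were -0.12 and -0.09.

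COX20 is a chaperone of newly made COX2. It read 6.54, 6.76 and 6.63 in the agonist arrays, 7.10, 7.04 and 7.11 in the GPR39 arrays and 7.35, 7.35 and 7.33 in the mock arrays. The 3 groups did not overlap, with agonist lowest and mock highest. Agonist was lower than GPR39 by a log2 difference of -0.44 ± 0.07 (SE of the limma fit), 0.738 times the GPR39 level (limma adjusted p = 0.00937), and this call held without any 1 array (adjusted p from 0.0111 to 0.0423). The GPR39 arrays stood at -0.26 ± 0.07 relative to mock, which did not pass (limma adjusted p = 0.158), and at -0.25 without mock replicate 1 (adjusted p = 0.164).

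COX18 moves the tail of COX2 across the inner membrane, where its copper site is formed. Its signal was 5.01, 5.41 and 5.57 in the agonist arrays, 5.86, 5.85 and 5.90 in the GPR39 arrays and 5.93, 6.11 and 6.00 in the mock arrays. All agonist arrays lay below all others, but they spread far more widely (SD 0.29) than the GPR39 arrays (SD 0.03). The log2 difference of agonist from GPR39 was -0.54 ± 0.13 (0.687 times; limma adjusted p = 0.0444). This call was lost without any 1 mock array, any 1 GPR39 array, or agonist replicate 1 or 2 (adjusted p from 0.0507 to 0.129), and without agonist replicate 1 the difference was -0.38.

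COX11 inserts copper into COX1. Agonist arrays read 7.13, 7.20 and 7.07, GPR39 arrays 7.42, 7.48 and 7.48, and mock arrays 7.41, 7.35 and 7.32. The agonist arrays were below all others. The log2 difference of agonist from GPR39 was -0.33 ± 0.06 (0.798 times; limma adjusted p = 0.0185), and the call was lost without any 1 GPR39 array or without agonist replicate 1 or 3 (adjusted p from 0.0524 to 0.0722).

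SDHAF3 helps to mature the iron-sulfur subunit of complex II. It read 4.95, 4.91 and 4.81 in the agonist arrays, 5.47, 5.27 and 5.29 in the GPR39 arrays and 5.45, 5.30 and 5.19 in the mock arrays. GPR39 and mock arrays overlapped, and the agonist arrays lay below both. The log2 difference of agonist from GPR39 was -0.45 ± 0.09 (0.730 times; limma adjusted p = 0.0216). Without any 1 GPR39 array, or without agonist replicate 2 or 3, the call was lost (adjusted p from 0.0526 to 0.0744).

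**Figure D2:**
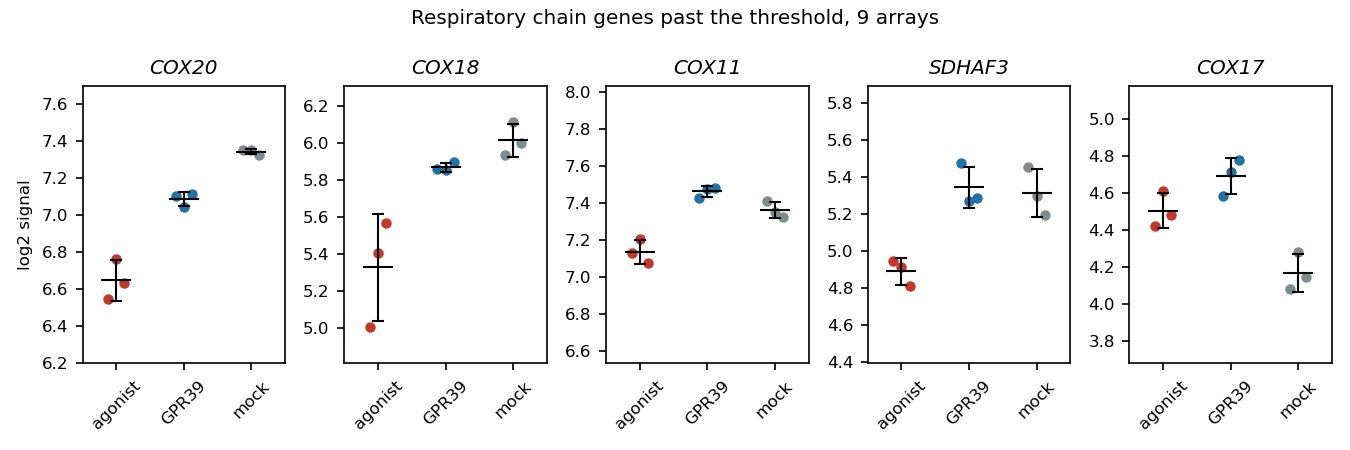
Log2 signal (vertical axis, each panel spanning the same range of log2 units) of the 5 genes past the threshold in any comparison, with 3 arrays per group as points and the mean ± SD in black. The agonist arrays lie below the GPR39 and mock arrays for COX20, COX18, COX11 and SDHAF3, while for COX17 the mock arrays lie below the other groups.

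The other complex IV factors did not pass in this comparison. COX19, a partner of COX11, differed by 0.05 (95% interval from -0.21 to 0.31), COX14, which binds new COX1, by -0.05 (-0.26 to 0.16), and COX7A2L, a factor of supercomplexes that join complexes III and IV, by -0.07 (-0.23 to 0.08). COX17, the chaperone that hands copper to COX11, differed by -0.19 (-0.39 to 0.02). COX14, COX17, SDHAF2 and SDHAF4 were named in this comparison after their values were seen. Among complex II factors, SDHAF1, which acts with SDHAF3, differed by 0.10 (-0.17 to 0.36), SDHAF2, needed to attach flavin, by -0.06 (-0.22 to 0.10) and SDHAF4, which binds the flavin subunit, by -0.04 (-0.33 to 0.26).

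Both named factors of complex I lay apart. NDUFAF7, a methyltransferase acting on a complex I subunit, differed by 0.00 (-0.19 to 0.19). NDUFAF8, which stabilises another assembly factor, read 7.75, 8.08 and 8.28 in the agonist arrays, 8.43, 8.34 and 8.44 in the GPR39 arrays and 8.39, 8.35 and 8.25 in the mock arrays. The agonist arrays were below all GPR39 arrays but overlapped mock, and the difference of -0.37 ± 0.13 did not pass (limma adjusted p = 0.124), although without agonist replicate 3 it was -0.49 and passed (adjusted p = 0.0478).

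No subunit gene passed in limma at the adjusted threshold. At an unadjusted p under 0.05 there were 2 of 20, both lower, against 23.4% of all probe sets tested. These were UQCRC2, a core protein of complex III, at -0.23 ± 0.07 (adjusted p = 0.0725), and COX7B at -0.20 ± 0.07 (adjusted p = 0.149), the second named after its values were seen. With a robustly fitted variance prior that follows the signal level, UQCRC2 passed (adjusted p = 0.0169). UQCRC2 read 10.04, 10.10 and 10.03 in the agonist arrays, 10.27, 10.29 and 10.29 in the GPR39 arrays and 10.32, 10.21 and 10.17 in the mock arrays. The agonist arrays were thus below all others by a small margin.

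Within complex III the remaining 4 subunit genes, of which UQCRC1 and UQCRB were named after their values were seen, ranged from -0.15 for UQCRC1 to 0.12 for UQCRH, the hinge protein that contacts cytochrome c. UQCRHL is a near-identical intronless copy of UQCRH and the arrays may not separate the pair; its difference was 0.00 (95% interval from -0.22 to 0.23). UQCRB, which helps to form a ubiquinone site, had exactly the same value on 4 of 9 arrays, 5.03. Equal values on 4 or more arrays occurred in 4 of the 41 genes, and on 2 or more arrays in 13. They can make the SD of a group smaller than the measurement error would be, and what made them was not tested.

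Complex IV subunits exist as isoforms, and neither form passed in any tested pair. COX4I1, the common form, differed by -0.10 (-0.27 to 0.07), and COX4I2, the form known from lung and low oxygen, by 0.19 (-0.04 to 0.42). COX6A1 differed by -0.01 (-0.17 to 0.15) and its heart and muscle form COX6A2 by -0.33 (-0.99 to 0.33), the widest interval among the members. COX7A1, another heart and muscle form, differed by 0.05 (-0.31 to 0.41) and the common COX7A2 by -0.02 (-0.26 to 0.22). COX6B1 stood at -0.01 (-0.21 to 0.18). The other 6 tested subunits of complex IV lay between -0.20 for COX7B and 0.08 for COX6C, the last also named after its values were seen. A second COX6A1 probe set read 2.39 to 2.70 in agonist arrays, 2.69 to 2.82 in GPR39 arrays and 2.91 to 3.04 in mock arrays. It lay near the 40th percentile and was above it on 1 of 3 agonist arrays, so its differences are not set against those of the kept probe set.

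At ATP synthase, the small membrane subunits ATP5MJ and ATP5MK differed by -0.03 (-0.28 to 0.22) and -0.06 (-0.29 to 0.18). ATP5IF1, the protein that keeps the enzyme from running backwards, read 6.70, 6.81 and 6.76 in the agonist arrays, 6.96, 6.98 and 7.07 in the GPR39 arrays and 6.96, 7.07 and 6.90 in the mock arrays. The agonist arrays lay below all others, and the difference of -0.24 ± 0.07 did not pass (limma adjusted p = 0.0876). It passed with the robustly fitted prior that follows the signal level (adjusted p = 0.0497). Of the RNA genes, COX10-DT, transcribed away from COX10, stood at -0.36 ± 0.13 (adjusted p = 0.125) and the kept probe set of NDUFA6-DT at 0.11 ± 0.12. The other NDUFA6-DT probe set, dimmer but above the 40th percentile on every array, stood at 0.39 ± 0.14 (95% interval from 0.06 to 0.72). Its agonist arrays lay above all GPR39 arrays, but the difference did not pass (limma adjusted p = 0.15). The NDUFA6-DT probe sets thus differed in size of change, and the gene is not read as unchanged.

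**Figure D3:**
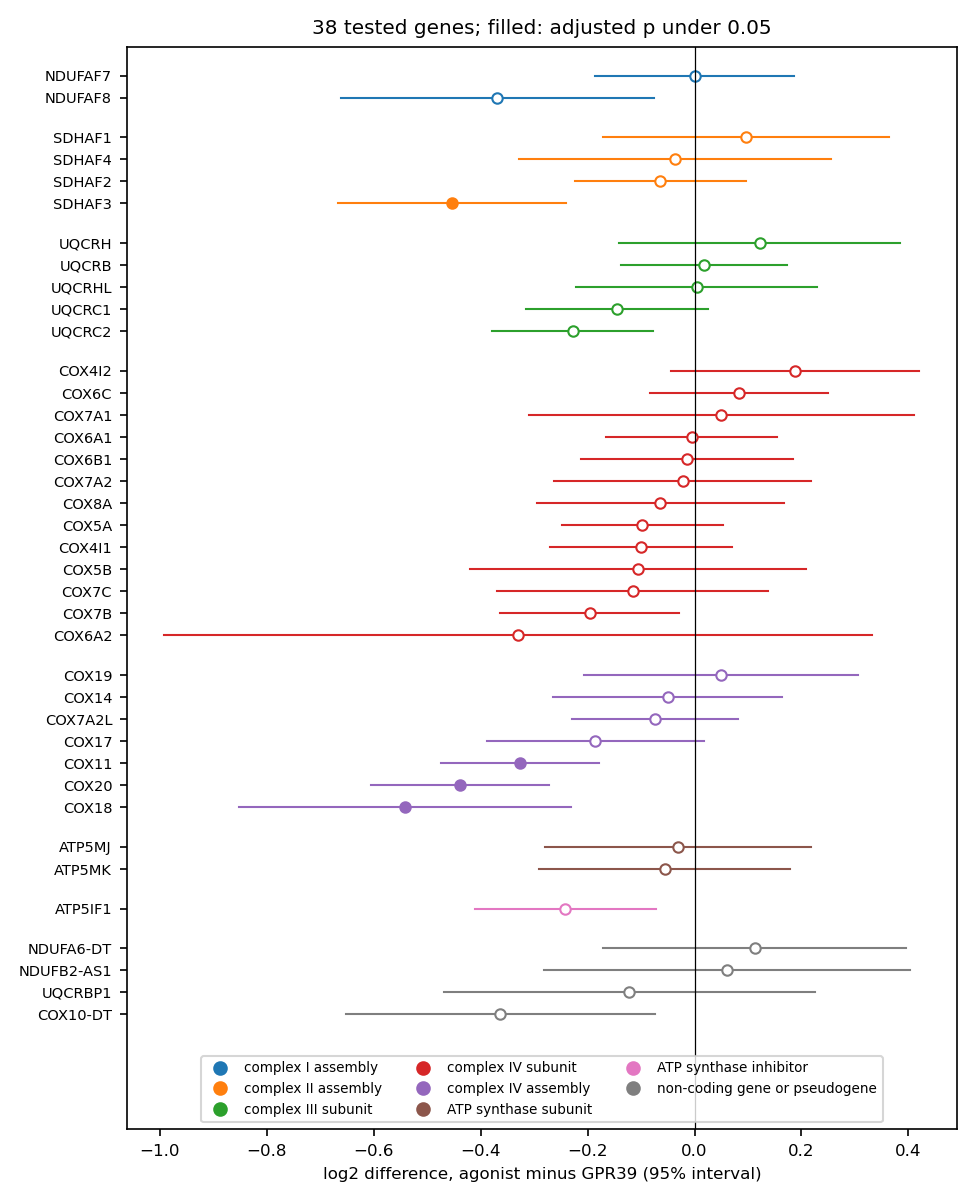
Log2 difference of agonist minus GPR39 (horizontal axis) with its 95% interval for the 38 tested genes (rows), coloured by complex and role; filled points have a limma adjusted p under 0.05. The 4 filled points are assembly factors between -0.54 and -0.33, and the 20 subunits lie between -0.33 and 0.19 with none filled.

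Genes of the same pathway whose symbols do not follow the naming rule were read beside them, from 8 lists of 108 genes, of which 61 had a named probe set and all 61 were tested. The 13 genes of the mitochondrial genome had none. The lists were drawn up with earlier results of these data known, so their shares are a description and not a test. In agonist against GPR39, 16 of the 61 fell and 2 rose (29.5%, against 9.06% of all probe sets tested and 12.9% of the named ones), with a median log2 difference of -0.20. Falls alone were 5.95% of all probe sets tested and 9.28% of the named ones. Those shares stand beside the falls of each list below. Of 35 genes listed for the assembly of complexes, 9 fell and 0 rose, with a median of -0.16. Among the 35 is CYC1, which encodes cytochrome c1, a subunit of complex III, and was named after its values were seen. CYC1 did not pass, at -0.19 ± 0.10 (limma adjusted p = 0.33). In complex I assembly 4 of 10 fell. TIMMDC1, a membrane anchor for assembly, at -0.67 ± 0.07, DMAC1 at -0.48 ± 0.07 and NUBPL, which delivers iron-sulfur centres, at -0.60 ± 0.12 were the 3 with the smallest p.

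In complex IV assembly 3 of 15 fell (20%, against 5.95% of all probe sets tested and 9.28% of the named ones). COA3, which holds newly made COX1 together with COX14, read 7.32, 7.55 and 7.57 in the agonist arrays, 8.36, 8.23 and 8.19 in the GPR39 arrays and 8.54, 8.51 and 8.21 in the mock arrays. Its agonist arrays lay below all others, at a log2 difference from GPR39 of -0.78 ± 0.11 (limma adjusted p = 0.00557). COA5 stood at -0.59 ± 0.09 and TACO1, the translational activator of COX1, at -0.41 ± 0.09. The ATP synthase factor ATPAF1, which binds the beta subunit, fell by 0.54 on the log2 scale (limma adjusted p = 0.00806), and the complex III factor LYRM7, a chaperone of the Rieske iron-sulfur protein, by 0.47 (adjusted p = 0.0482).

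Among 10 genes of ubiquinone synthesis and electron entry, 3 fell: DHODH, which passes electrons from pyrimidine synthesis to ubiquinone, at -0.74 ± 0.12, the ubiquinone synthesis protein COQ9 at -0.72 ± 0.10 and the electron transfer enzyme ETFDH at -0.30 ± 0.06. COQ10B, a ubiquinone-binding protein named here after its values were seen, rose by 0.42 ± 0.09 (adjusted p = 0.027), and its alternatives were not run in this comparison. In the citrate cycle list 4 of 10 fell, with PDHB and DLAT of pyruvate dehydrogenase at -0.32 ± 0.06 and -0.34 ± 0.07, and IDH3A at -0.25 ± 0.06. Of 6 listed genes for nuclear-encoded regulators, some of which act inside mitochondria, MYC alone passed, higher by 0.59 ± 0.08 (adjusted p = 0.00356). NRF1, named after its values were seen, stood at 0.02. The calls of TIMMDC1, DMAC1, COA3, COA5, ATPAF1, DHODH, COQ9 and MYC held without any 1 array. Those of TACO1, LYRM7, ETFDH, DLAT, IDH3A and PDHB were each lost without any 1 GPR39 array, and NUBPL without GPR39 replicate 2 or 3 (adjusted p from 0.0683 to 0.0701). The highest adjusted p without 1 array was 0.0994 for TACO1, 0.148 for LYRM7, 0.084 for ETFDH, 0.0734 for DLAT, 0.114 for IDH3A and 0.0743 for PDHB. These 6 were also lost without, in turn, agonist replicates 1 and 2 for TACO1, any agonist or mock array for LYRM7, agonist replicates 2 and 3 for ETFDH, agonist replicate 2 for DLAT, any agonist array or mock replicate 2 for IDH3A, and agonist replicates 1 and 3 for PDHB. Without GPR39 replicates 1, 2 and 3 the count over the 61 genes was 9, 8 and 8, against 18 with all arrays. Over all probe sets it was 1583, 1515 and 1509, against 3025.

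**Figure D4:**
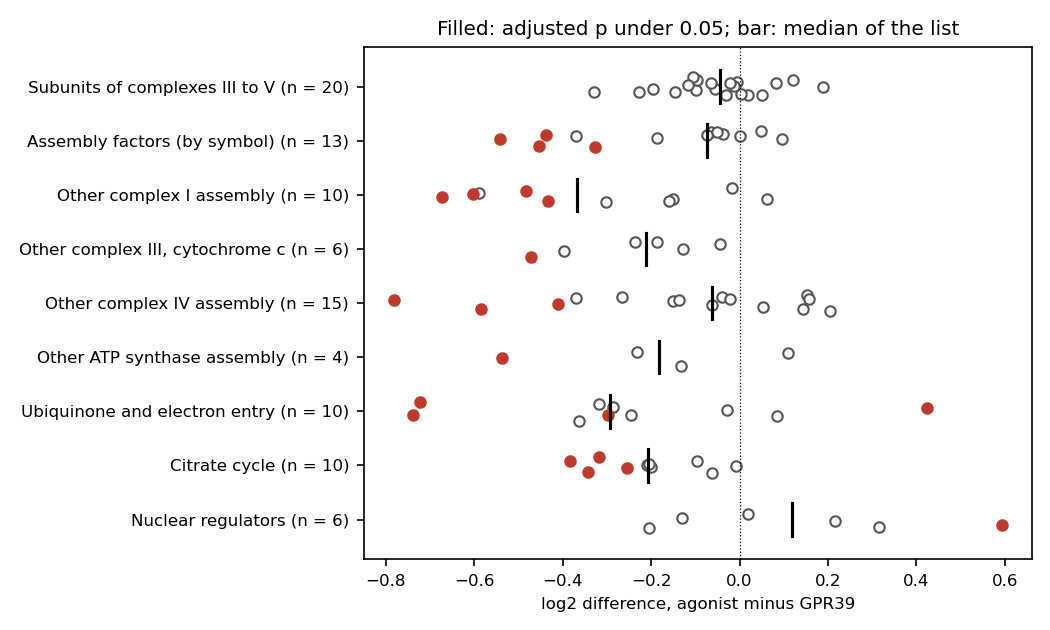
Log2 difference of agonist minus GPR39 (horizontal axis) for tested subunits, for assembly factors chosen by symbol and for 7 lists of other pathway genes (rows; each point a gene, shifted at random up or down for clarity), with the list's median as a bar and points filled where the limma adjusted p is under 0.05. The subunit row holds no filled point, and the filled points of the assembly, ubiquinone and citrate cycle rows lie below 0 except for COQ10B.

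GPR39 against mock asks what differs with the receptor label and cumate. Here 1 of 38 genes rose, COX17, and 0 fell (2.63%, against 1.17% of all probe sets tested and 1.64% of the named ones). Rises alone were 0.749% and 1.08%. The median log2 difference was 0.01 for subunits, 0.06 for assembly factors and 0.01 over all probe sets tested, and without mock replicate 1 it was 0.03, 0.07 and 0.01. The sign of the subunit median was not stable: it was -0.03 without mock replicate 3, 0.04 without mock replicate 2 or GPR39 replicate 1, 0.02 without GPR39 replicate 3, 0.01 without GPR39 replicate 2 and 0.06 with arrays centred on their 75th percentile. The assembly factor median was 0.03 without mock replicate 3 and 0.11 under that centring. COX17 read 4.43, 4.61 and 4.48 in the agonist arrays, 4.58, 4.71 and 4.78 in the GPR39 arrays and 4.08, 4.28 and 4.15 in the mock arrays. GPR39 was above all mock arrays and overlapped agonist, with a log2 difference from mock of 0.52 ± 0.09 (1.44 times; limma adjusted p = 0.0356). Without mock replicate 1 it was 0.48 (adjusted p = 0.0447). The call was lost without mock replicate 2 or 3, any 1 GPR39 array, or agonist replicate 1 or 3 (adjusted p from 0.0564 to 0.145).

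No subunit passed in GPR39 against mock, and at an unadjusted p under 0.05 the limma count was also 0 of 20, against 14.8% of all probe sets tested. The subunits lay between -0.17 for UQCRH and 0.30 for COX6A2, and without mock replicate 1 between -0.23 for UQCRH and 0.56 for COX6A2, again with 0 of 20 at an unadjusted p under 0.05. Over all probe sets the count of calls in this comparison was 391, and it was 1323 without mock replicate 1, where COX17 was still the 1 member called. The members' share without that array was 2.63%, below the 3.96% of all probe sets tested and the 3.46% of the named ones. Of the 61 other pathway genes 0 passed in limma and 4 had an unadjusted p under 0.05 (6 without mock replicate 1). COQ10B stood at 0.46, the largest of the 61, and without mock replicate 1 it was the 1 gene called, at 0.50 (adjusted p = 0.0497). That 1 gene is 1.64% of the 61, also below the 3.96% and 3.46%.

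Agonist against mock gives the combined difference. It shares its agonist and mock arrays with the comparisons above and is not independent of them. In it 3 of 38 genes fell and 1 rose (10.5%, against 15.0% of all probe sets tested and 21.3% of the named ones), and all 4 were assembly factors. Falls were 8.94% of all probe sets tested and 13.6% of the named ones, and rises 6.11% and 7.73%. Without mock replicate 1, 3 members fell and 0 rose (7.89%, against 14.8% of all probe sets tested and 19.2% of the named ones). The median log2 difference was -0.036 for subunits, -0.087 for assembly factors and 0.017 over all probe sets tested. Without mock replicate 1 it was -0.015, -0.05 and 0.011. With any 1 array left out it ran from -0.097 to -0.006 for subunits and from -0.124 to -0.05 for assembly factors. COX20 stood at -0.70 ± 0.07 (0.617 times; limma adjusted p = 0.000631), COX18 at -0.69 ± 0.13 (adjusted p = 0.0114) and SDHAF3 at -0.42 ± 0.09 (adjusted p = 0.0183). COX17 stood at 0.34 ± 0.09 (adjusted p = 0.0378). COX11, at -0.23 ± 0.06, just missed the threshold (adjusted p = 0.0502). Without mock replicate 1, COX20, COX18 and SDHAF3 passed at -0.69, -0.73 and -0.36, while COX17, at 0.29, did not (adjusted p = 0.0929), nor did COX11, at -0.20 (adjusted p = 0.111).

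The calls of COX20 and COX18 in agonist against mock held without any 1 array, and SDHAF3 was lost without mock replicate 2 or agonist replicate 3 (adjusted p from 0.053 to 0.059). COX17 was also lost without mock replicate 3, GPR39 replicate 2 or 3, or any 1 agonist array (adjusted p from 0.052 to 0.102). Without agonist replicate 3 the count of members called was 2. On the kept probe sets no subunit passed in limma, and 3 of 20 had an unadjusted p under 0.05 (2 of 20 without mock replicate 1), against 28.8% of all probe sets tested. COX4I2 was the highest of these at 0.33 ± 0.10 (adjusted p = 0.0673, and 0.0854 without mock replicate 1), with 4.34, 4.24 and 4.40 in the agonist arrays and 4.06, 3.95 and 3.98 in the mock arrays. The dim second COX6A1 probe set, which passed the filter through the GPR39 and mock arrays, had a limma adjusted p of 0.0172 at -0.43, and the kept one stood at -0.09. The value of the second probe set without mock replicate 1 is not given here. With arrays centred on their 75th percentile, members called were 2 higher and 2 lower, and higher calls made up 56.2% of all calls, against 40.6% as deposited.

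Of the 61 other pathway genes, 15 fell and 4 rose in agonist against mock (31.1%, against 15.0% of all probe sets tested and 21.3% of the named ones). Falls alone were 8.94% and 13.6% in those backgrounds. Here too the shares are a description, since the lists were drawn up with earlier results known. Without mock replicate 1, 14 fell and 4 rose (29.5%, against 14.8% and 19.2%). COA3 stood at -0.94 ± 0.11, COA5 at -0.73 ± 0.09, DHODH at -0.96 ± 0.12, COQ9 at -0.74 ± 0.10 and TIMMDC1 at -0.64 ± 0.07. Falls also passed for ATPAF1 at -0.54, NUBPL at -0.57, DMAC1 at -0.44, TACO1 at -0.45, PDHB at -0.36, DLD at -0.38 and UQCC2, a factor for making cytochrome b, at -0.51. Among the genes that rose were COQ10B at 0.88 ± 0.09, MYC at 0.64 ± 0.08 and TWNK, the mitochondrial DNA helicase, at 0.58 ± 0.12. Without mock replicate 1, COA3 stood at -0.88, COA5 at -0.81, DHODH at -0.88, COQ9 at -0.69, TIMMDC1 at -0.66, ATPAF1 at -0.49, NUBPL at -0.50, DMAC1 at -0.40, TACO1 at -0.40, PDHB at -0.33 and UQCC2 at -0.44, and COQ10B at 0.92, MYC at 0.69 and TWNK at 0.67. All of these passed without that array, and DLD, at -0.37, did not. The calls of DLD and UQCC2 were lost without single arrays, DLD without mock replicate 1 or 3 or agonist replicate 1 or 3 (adjusted p from 0.064 to 0.0814) and UQCC2 without mock replicate 2 or agonist replicate 1 or 2 (adjusted p from 0.058 to 0.0641).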

How the data were processed

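Total RNA of 9 HEK293 samples was hybridised as biotin-labelled cRNA. The authors deposited log2 signals for 53617 probe sets, for which the submitters' processing notes name MAS5; the log2 scale is judged from the values (0.717 to 13.5), and background correction, normalization and version are not stated there. Gene symbols come from the platform annotation and were checked by Entrez identifier in RefSeq. A named probe set is 1 of the 16098 with 1 symbol, and the other 37519 had none or more than 1. No column lay outside the 9 samples. Arrays give no read depth, and their number limits the precision.

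All 9 arrays were fitted in limma 3.58.1 (R 4.3.3) with lmFit and eBayes (6 residual and 2.12 prior degrees of freedom), with two-sided tests and p-values adjusted by Benjamini-Hochberg across 33376 probe sets above the 40th percentile on at least 3 arrays and a threshold of 0.05. Errors of differences are SEs and intervals are 95%. Left-out arrays kept the tested probe sets. The script was tested on simulated data.

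Members and lists were chosen with earlier results of these data known. Named genes are the members past the threshold (up to 12 each way), the highest and lowest of each class in agonist against GPR39, isoform pairs, and up to 3 genes past it per other list. Outside that rule, members and NRF1 are marked in agonist against GPR39, as are COQ10B and CYC1. In GPR39 against mock, COX20, UQCRH, COX6A2 and COQ10B were named after their values were seen. In agonist against mock, COX11 and COX4I2 were named in the same way, as were COX7B2 and UQCRBP1 for their low signal.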

Additional observations from a re-analysis of the deposited data

How the results depend on the processing

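Alternatives were other filters, 3 other scalings and a robustly fitted prior that follows the signal level. Others were fits of only the compared groups, a replicate block, averaged probe sets, repeated rows left out and each array left out. No named gene changed sign with a call. COX20 passed under all 19 alternatives in agonist against GPR39 (adjusted p from 0.00334 to 0.0423), SDHAF3 under 14 (0.015 to 0.0744), COX11 under 13 (0.00554 to 0.0722) and COX18 under 8 (0.0278 to 0.129); COX17 passed under 9 in GPR39 against mock (0.0167 to 0.145) and 8 in agonist against mock (0.0134 to 0.102).

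Deviations of equally numbered replicates of different groups were weakly correlated (from -0.101 to 0.065). Differently numbered replicates were not compared in this way, so these values cannot decide whether the numbers pair samples. With the replicate block, agonist against GPR39 had 2 members called, both assembly factors, and 9 other pathway genes, with 1819 of all probe sets, and GPR39 against mock had 0 members and 150 probe sets. In agonist against GPR39, arrays centred on the 75th percentile gave 11 other pathway genes, and the signal-level prior gave 1 subunit. In GPR39 against mock, no filter and only the 2 groups each gave 0 members and 0 assembly factors, the filter on all 9 arrays and the signal-level prior each 1 other pathway gene, the prior 663 probe sets and only the 2 groups 190. In agonist against mock, the 75th percentile and the prior each gave 1 subunit, and only the 2 groups 3133 probe sets, against 5022. The 75th percentile turned the subunit median there to 0.04, against -0.04 as deposited, and made 74.7% of calls in GPR39 against mock higher, against 63.9%.

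With 1 array left out, agonist against GPR39 had 1 to 3 members called (assembly factors 1 to 3, other pathway genes 8 to 16, all probe sets 1509 to 3119, against 3025). GPR39 against mock had 0 to 1 members, 0 to 1 assembly factors, 0 to 1 other pathway genes and 108 to 1323 probe sets, and agonist against mock 2 to 6 members, 2 to 4 assembly factors and 0 to 1 subunits. With 3 arrays a group and genes of small change, a missed threshold does not show equal levels.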
